A study of Rattus norvegicus with 6 samples.

Results

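The respiratory chain and ATP synthase genes are the nuclear genes that encode the 5 protein complexes of oxidative phosphorylation. They were taken by symbol: a gene belonged if a probe set with exactly 1 annotated symbol began with Nduf, Uqcr, Atp5 or Cox followed by 4, 5, 6, 7 or 8, or was Sdha, Sdhb, Sdhc or Sdhd. This gave 80 of the 14497 genes with a named probe set, from 90 probe sets, with each gene represented by its brightest probe set on average over the arrays. Complex I held 36 genes, complex II 4, complex III 7, complex IV 17 and complex V 16. Of the 80 genes, 77 reached the 40th percentile of at least 1 array and were tested, while Cox8b, Cox8c and Cox6c-ps1 did not and have values only. The rule also took 3 assembly factors (Ndufaf1, Ndufaf3 and Ndufaf4) and the pseudogene symbols Ndufs6-ps1 and Cox6c-ps1, and left 73 tested genes that encode subunits, the ATP synthase inhibitor or the supercomplex factor Cox7a2l. Ndufa4, named for complex I, was counted with complex IV, where its protein is known to reside. Cox6b1, Cox7a1, Ndufa4l2 and the subunits encoded in mitochondrial DNA were not analysed here.

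RNA was measured on 6 whole-transcript Affymetrix arrays of brain tissue from male Sprague-Dawley rats, 1 array for each group. The stroke was made by lifting the middle cerebral artery on a hook for a time, which stops its flow, and tissue was microdissected from the area around the infarct. Aged stroke rats were 19 to 20 months old and weighed 520 to 600 g, with 23 animals pooled for the array at 3 d and 23 for that at 14 d, and aged naive rats were 18 to 20 months old, with 15 pooled. Young stroke rats were 3 to 4 months old and weighed 290 to 360 g, with 19 pooled at each time, and young naive rats were 3 to 5 months old, with 15 pooled. Naive rats had no stroke and no sham operation is named. The labels call their tissue healthy brain and give no region, so a difference of region between stroke and naive tissue cannot be told apart from stroke. No group had a replicate, and the spread between animals cannot be seen in pooled RNA. Values are on a scale taken as log2, on which a difference of 1 is a doubling. The fitted comparisons used age and condition as additive terms in limma over all 6 arrays. Each error (standard error, SE) rests on how far the aged and young arrays depart from a common effect, drawn by limma toward a variance estimated over all genes. The number of arrays limits the precision. The array medians lay between 7.09 and 7.15, and pairs of arrays correlated at 0.962 to 0.995 over all probe sets. All 12 neuronal and all 7 astrocyte markers asked for passed the filter.

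Oxidative phosphorylation takes electrons from NADH at complex I and from succinate at complex II, passes them through ubiquinone to complex III and through cytochrome c to complex IV, where oxygen is reduced to water. Complexes I, III and IV pump protons across the inner mitochondrial membrane, and complex V, the ATP synthase, uses their return to make ATP. Neurons depend on this pathway for the ATP that restores ion gradients after signalling, and in mammals the transcription factors NRF1, the ETS family member GABP and YY1 are known to act at promoters of many of its nuclear genes.

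The promoters of a few members are shown because these factors are known for such genes and most members were lower after stroke. Of the 80 members, 70 matched the RefSeq promoter table of the rat assembly GRCr8. Each window of 300 bases, of which 50 follow the annotated start, was searched on both strands for GCGCA and GCGC with any 1 base between them (NRF1), CCGGAAG (ETS) and AAGATGG (YY1). The ETS motif ends in the 3 letters that open the YY1 motif, so matches of both can share bases. The NRF1 letters stood in 14 of 70 members (20.0%), against 4.25% of all 33469 promoters of that length. The ETS letters stood in 21 members (30.0%), against 8.75%, and the YY1 letters in 15 members (21.4%), against 7.01%. At least 1 of the motifs stood in 41 members (58.6%), against 18.0% of all promoters. The promoters compared were not matched to the members in base composition or expression. Whether the higher shares are particular to these genes was thus not tested. A match describes letters and not a bound site. The 250 bases before the annotated start follow, 5′ to 3′ on the gene's strand, with the motif in capitals. Ndufs1 (chr9:72073606-72073855, minus strand) has an ETS match that begins 199 bases before the start, here as its reverse complement. Ndufs5 (chr5:141264403-141264652, minus strand) has an NRF1 match that begins 129 bases before it. Uqcrc1 (chr8:118467973-118468222, plus strand) has an NRF1 match that begins 64 bases before it, also as its reverse complement. These 3 genes were lower at 14 d. Ndufb2 (chr4:69334057-69334306, plus strand), the member with the largest fall, has none of the motifs in its window, and neither has Ndufb11 (chrX:4126067-4126316, plus strand), which was higher at 3 d. Of the 11 genes called lower at 14 d that have a promoter in the table, 7 hold a motif and 4 (Ndufb2, Ndufb3, Ndufs3 and Ndufa7) hold none.
Ndufs1: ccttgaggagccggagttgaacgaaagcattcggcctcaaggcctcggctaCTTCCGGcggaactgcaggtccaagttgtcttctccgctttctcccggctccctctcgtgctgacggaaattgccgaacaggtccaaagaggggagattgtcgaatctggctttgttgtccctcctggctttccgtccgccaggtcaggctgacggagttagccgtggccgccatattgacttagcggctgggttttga
Ndufs5: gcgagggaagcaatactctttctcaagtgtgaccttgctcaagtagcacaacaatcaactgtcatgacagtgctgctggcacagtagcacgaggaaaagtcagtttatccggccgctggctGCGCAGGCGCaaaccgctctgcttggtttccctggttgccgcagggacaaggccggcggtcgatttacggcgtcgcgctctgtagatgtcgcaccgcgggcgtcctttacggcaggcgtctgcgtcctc
Uqcrc1: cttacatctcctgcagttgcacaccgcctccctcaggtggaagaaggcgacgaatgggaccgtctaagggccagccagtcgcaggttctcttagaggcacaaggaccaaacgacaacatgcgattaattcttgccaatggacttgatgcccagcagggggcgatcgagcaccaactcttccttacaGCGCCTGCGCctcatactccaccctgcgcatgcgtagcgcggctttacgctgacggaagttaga
Ndufb2: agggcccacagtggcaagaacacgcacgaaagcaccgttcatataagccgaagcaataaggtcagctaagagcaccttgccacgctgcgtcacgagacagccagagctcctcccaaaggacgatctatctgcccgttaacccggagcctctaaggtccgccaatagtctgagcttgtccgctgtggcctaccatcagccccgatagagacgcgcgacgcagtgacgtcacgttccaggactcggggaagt
Ndufb11: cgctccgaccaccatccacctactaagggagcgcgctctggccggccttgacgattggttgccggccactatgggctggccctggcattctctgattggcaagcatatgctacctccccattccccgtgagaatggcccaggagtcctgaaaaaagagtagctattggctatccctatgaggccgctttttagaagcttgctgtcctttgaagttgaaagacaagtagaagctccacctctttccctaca

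Across the 77 tested members, the RNA of most subunits was lower around the infarct than in naive brain, by small amounts, with the lower median at 14 d. The median change was -0.16 at 3 d and -0.25 at 14 d, against -0.03 and -0.05 over all 10947 genes tested. The fitted change was below 0 for 67 of the 77 members at 3 d and for 71 at 14 d. On the log2 scale the members' changes ran from -0.63 to 0.47 at 3 d and from -0.85 to 0.39 at 14 d, with a median SE of 0.13, so many single changes were of a size close to their error. At an adjusted p of 0.05, 3 of 77 members passed at 3 d (3.9%; 1 higher and 2 lower), against 22.2% of all genes (14.4% higher and 7.87% lower). At 14 d 12 passed (15.6%), 0 higher and 12 lower, against 25.0% of all genes (13.6% higher and 11.4% lower). The share of members called lower at 14 d was thus near the share of all genes called lower, while the share called higher was below it. Without adjustment, 20 members had a limma p under 0.05 at 3 d (26.0%, against 37.1% of all genes) and 32 at 14 d (41.6%, against 38.4%).

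The number of calls depended on single arrays. The shares of all genes called without each array are not given here. Whether the calls of all genes fell or rose alike was thus not tested. At 14 d, 0 members passed without the aged naive array, 5 without the aged 14 d array and 6 without the young naive array, against 11 without either 3 d array and 20 (2 higher, 18 lower) without the young 14 d array. At 3 d, 0 passed when the naive or the 3 d array of aged rats was left out, 2 when that of young rats was left out, and 12 (3 higher, 9 lower) without either 14 d array. The median change of the members stayed below 0 each time, and at 3 d was -0.09 without the aged naive array and -0.27 without the young naive array. With a variance trend and robust variances, 16 members passed at 3 d, 13 of them lower, against 28.8% of all genes (12.1% lower). At 14 d 30 passed under it, 29 of them lower, against 31.5% of all genes (16.0% lower). With the array medians centred, 4 passed at 3 d, all lower, against 23.2% of all genes (10.1% lower), and 22 at 14 d, all lower, against 27.6% (15.4% lower).

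Single arrays show how many members shared the direction, with no test. In aged rats 65 of 77 members were below naive tissue at 3 d and 70 at 14 d, against 54.9% and 54.4% of all genes. In young rats 57 were below it at 3 d and 71 at 14 d, against 50.7% and 56.4%. At 14 d, 65 of 77 members (84.4%) were lower on both stroke arrays than on both naive arrays, against 37.9% of all genes, and 2 (2.6%) were higher, against 28.3%. At 3 d, 49 members (63.6%) were lower without overlap, against 38.1%, and 6 (7.79%) were higher, against 33.8%. All 4 stroke arrays lay below both naive arrays for 49 members (63.6%), against 28.8% of genes. The reverse held for Cox6b2 and Ndufb11 (2.6%), against 23.8% of genes. By complex, the count lower without overlap at 14 d was 31 of 36 in complex I, 3 of 4 in complex II, 6 of 7 in complex III, 10 of 14 in complex IV and 15 of 16 in complex V. Members are not independent of each other, since the same 6 arrays carry them all. In RNA of whole tissue, fewer cells of a type and less RNA per cell cannot be told apart.

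**Figure D1:**
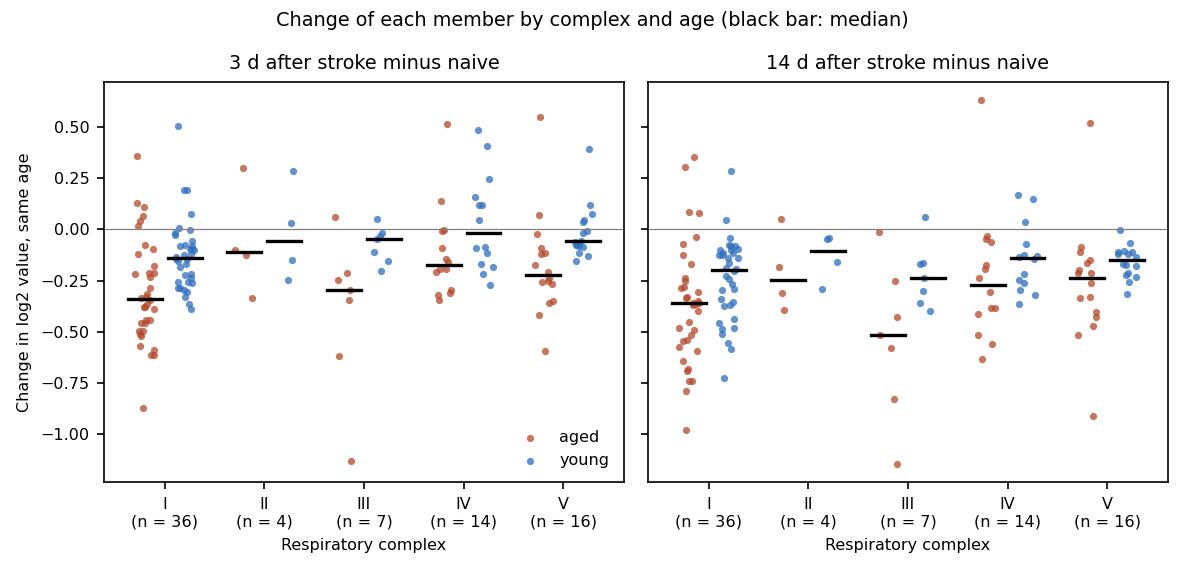
Change in log2 value of each tested member at 3 d (left) and 14 d (right) after stroke minus naive, within aged rats and within young rats, by complex. Each point is 1 gene from 1 array against 1 array, and black bars are medians. The medians lie below 0 in each complex, age and time, and complex III in aged rats at 14 d has the lowest median, -0.51.

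Complex I, the NADH dehydrogenase and the largest complex, held 9 of the 12 members that were lower at 14 d and 36 of the 77 tested. The 9, which include the assembly factor Ndufaf1 and the pseudogene symbol Ndufs6-ps1, are 25.0% of its genes, against 11.4% of all genes called lower. In complex III the share called lower was 28.6%, which is 2 of 7 genes. The median change of complex I was -0.22 at 3 d and -0.28 at 14 d. Ndufb2, a supernumerary subunit of its membrane arm, had the largest fall. It measured 9.33, 8.46 and 8.36 in aged rats (naive, 3 d and 14 d) and 9.39, 9.00 and 8.67 in young rats. All 4 stroke arrays were below both naive arrays. The fitted change was -0.63 ± 0.15 at 3 d (adjusted p = 0.02) and -0.85 ± 0.15 at 14 d (adjusted p = 0.00588), which is 1.8-fold lower.

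Ndufs3, a core subunit of the peripheral arm, was the other gene past the threshold at both times. It measured 9.90, 9.32 and 9.21 in aged rats and 9.85, 9.49 and 9.34 in young rats, and fell by 0.47 ± 0.12 at 3 d (adjusted p = 0.0329) and by 0.60 ± 0.12 at 14 d (adjusted p = 0.0125). Ndufb3, a membrane arm subunit, measured 9.38, 8.89 and 8.64 in aged rats and 9.29, 9.00 and 8.81 in young rats. It fell by 0.61 ± 0.13 at 14 d (adjusted p = 0.0127). In both genes the levels of aged and young rats ran in the same order, with naive tissue above 3 d and 3 d above 14 d. Ndufb4, another membrane arm subunit, measured 10.15, 9.64 and 9.36 in aged rats and 10.04, 9.91 and 9.67 in young rats. It fell by 0.58 ± 0.14 at 14 d (adjusted p = 0.0236), and its second probe set was 0.88 lower in aged rats and 0.47 lower in young rats.

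Ndufs1 encodes the large iron-sulfur subunit that carries electrons away from the NADH site, and its promoter with the ETS match is printed above. It measured 10.35, 10.01 and 9.85 in aged rats and 10.34, 10.03 and 9.88 in young rats, and fell by 0.47 ± 0.12 at 14 d (adjusted p = 0.0233). The 2 ages were nearly equal on all 3 pairs of arrays. Ndufv1, the subunit that binds NADH, measured 10.35, 10.12 and 10.07 in aged rats and 10.36, 10.26 and 10.20 in young rats. Its change of -0.22 ± 0.12 at 14 d did not pass (adjusted p = 0.211). The remaining complex I genes past the threshold at 14 d were chosen for mention after their values were seen. They were the supernumerary subunits Ndufs5 (-0.48 ± 0.12) and Ndufa7 (-0.43 ± 0.12), the assembly factor Ndufaf1 (-0.56 ± 0.13) and the pseudogene symbol Ndufs6-ps1 (-0.53 ± 0.14), with adjusted p of 0.0189 to 0.0412. Probes of Ndufs6-ps1 may read the near-identical functional gene, so its value is uncertain.

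Ndufb11, a membrane arm subunit encoded on the X chromosome, ran the other way. It measured 10.37, 10.72 and 10.72 in aged rats and 10.15, 10.65 and 10.43 in young rats. All 4 stroke arrays were above both naive arrays. It rose by 0.43 ± 0.12 at 3 d (adjusted p = 0.0436), and the change of 0.32 ± 0.12 at 14 d did not pass (adjusted p = 0.0983). The call at 3 d was lost under 7 of 13 alternatives, among them median centring and leaving out any of the naive or 3 d arrays.

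Other complex I genes stood near their naive level. Ndufb6 differed by -0.01 ± 0.12 at both times, Ndufa11 by 0.10 at 3 d and -0.01 at 14 d, and Ndufb10 by 0.05 and -0.02. Ndufs7, a core subunit, was 0.30 higher at 14 d in aged rats and 0.14 lower in young rats. The lower levels thus did not extend to each complex I subunit by the same amount. Ndufa10 is given from its own probe set (-0.48 ± 0.15 at 14 d, adjusted p = 0.0511). A brighter probe set that also names Ndufa10l1 was left out by the rule and read 10.91, 10.79 and 10.70 in aged rats and 10.87, 10.82 and 10.80 in young rats.

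**Figure D2:**
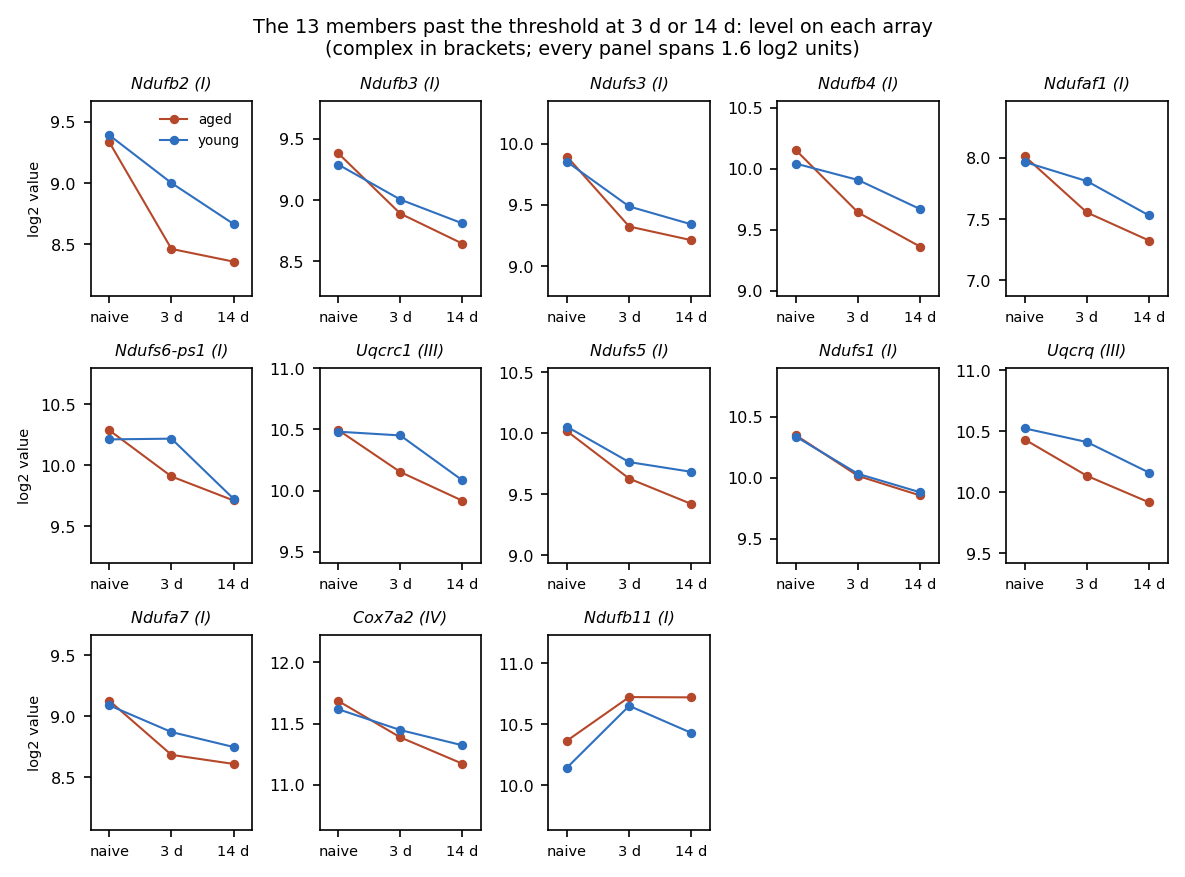
Log2 value on each of the 6 arrays for the members past the threshold at 3 d or 14 d, by condition, with aged and young rats in separate lines. Lines join different pools of animals. Ndufb11 lies higher on the 3 d and 14 d arrays than on the naive arrays, and the other panels lie lower at 14 d.

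Complex II, succinate dehydrogenase, also works in the citric acid cycle and is the only complex with no subunit from mitochondrial DNA. None of its 4 genes passed at either time with limma, and 2 at 3 d and 1 at 14 d had an unadjusted p under 0.05, against 37.1% and 38.4% of all genes. Sdha, the flavoprotein that oxidises succinate, measured 10.73, 10.39 and 10.33 in aged rats and 10.64, 10.39 and 10.35 in young rats, lower on all 4 stroke arrays. Sdhb, the iron-sulfur subunit, measured 10.09, 10.39 and 10.14 in aged rats and 9.86, 10.14 and 9.81 in young rats. Sdhb was highest at 3 d in both ages and near its naive level at 14 d, with a change of 0.29 ± 0.12 at 3 d (adjusted p = 0.117). Sdha and Sdhb, whose proteins bind each other in the complex, thus differed from naive tissue at 3 d by -0.29 and 0.29. The membrane anchors Sdhc and Sdhd differed by -0.05 and -0.12 at 3 d and by -0.11 and -0.24 at 14 d.

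Complex III, the cytochrome bc1 complex, had the lowest median of the complexes at 14 d, -0.44, and a median of -0.20 at 3 d. The median at 14 d was -0.27 without the aged 14 d array and -0.23 without the aged naive array. Of the 7 complex III genes 2 were called lower at 14 d (28.6%, against 11.4% of all genes). Uqcrc1, a supernumerary subunit known by the name of core protein, measured 10.50, 10.15 and 9.92 in aged rats and 10.48, 10.45 and 10.08 in young rats. It fell by 0.49 ± 0.13 at 14 d (adjusted p = 0.0307). Uqcrq, a small subunit, measured 10.43, 10.14 and 9.92 in aged rats and 10.52, 10.41 and 10.16 in young rats, and fell by 0.44 ± 0.12 at 14 d (adjusted p = 0.036). In Uqcrc1 the young 3 d array was within 0.03 of the young naive array, whereas the aged 3 d array was already 0.34 lower than the aged naive array. Uqcrc2, the other core protein, differed by -0.20 at 3 d and -0.21 at 14 d and did not pass. Uqcrh, the hinge protein between cytochrome c1 and cytochrome c, differed by 0.02 and -0.13.

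Complex IV, cytochrome c oxidase, had 1 of 14 tested genes past the threshold at 14 d (7.14%, against 25.0% of all genes). Cox7a2 measured 11.68, 11.39 and 11.17 in aged rats and 11.62, 11.45 and 11.32 in young rats and fell by 0.40 ± 0.12 at 14 d (adjusted p = 0.0484), a call lost under 7 of 13 alternatives. Its second probe set was 0.56 lower in aged rats and 0.35 lower in young rats at 14 d. Cox5a, a matrix-side subunit, differed by -0.08 at 3 d and -0.23 at 14 d. Its 2 probe sets disagreed at 3 d: the one used was 0.21 lower in aged and 0.05 higher in young rats, where the second was 0.05 higher in aged and 0.19 lower in young rats. Ndufa4 differed by -0.30 and -0.37 (adjusted p = 0.109 and 0.0525).

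Several complex IV subunits come in a ubiquitous form and a tissue form. Cox4i1, the ubiquitous form of subunit 4, measured 11.72, 11.37 and 11.16 in aged rats and 11.73, 11.54 and 11.46 in young rats, with a change of -0.41 ± 0.13 at 14 d (adjusted p = 0.0523). Cox4i2, the lung form that is induced by low oxygen in cultured mammalian cells, measured 6.30, 6.29 and 6.24 in aged rats and 6.12, 6.60 and 6.28 in young rats. The young 3 d array alone lay high for Cox4i2, and the other 5 values were below the 40th percentile of their arrays (6.53 to 6.62). Cox6a1 differed by 0.13 at 3 d and -0.09 at 14 d, and the muscle form Cox6a2 by 0.04 and -0.26. Cox6b2, the form known from testis, measured 6.46, 6.97 and 7.09 in aged rats and 6.65, 7.06 and 6.80 in young rats. All 4 stroke arrays were above both naive arrays for Cox6b2, and its changes of 0.46 ± 0.15 at 3 d and 0.39 ± 0.15 at 14 d did not pass (adjusted p = 0.0636 and 0.0955). Its naive values lay near the floor. The aged one was below the 40th percentile of its array (6.56) and the young one little above its own (6.55). Cox8a differed by -0.05 at both times. Its muscle form Cox8b, which was not tested, measured 6.02, 5.65 and 5.75 in aged rats and 5.93, 5.63 and 6.07 in young rats, all below the 40th percentile of the arrays.

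Complex V, the ATP synthase, had 0 of 16 genes past the threshold at either time with limma, against 22.2% and 25.0% of all genes. Of the 16, 1 at 3 d and 4 at 14 d had an unadjusted p under 0.05, against 37.1% and 38.4% of all genes. Its catalytic part is the F1 head. Atp5f1a, the alpha subunit, measured 11.42, 11.17 and 10.99 in aged rats and 11.34, 11.33 and 11.22 in young rats. The fitted change of Atp5f1a was -0.13 at 3 d and -0.27 ± 0.13 at 14 d. Atp5f1b, the catalytic beta subunit, differed by -0.06 at 3 d and -0.17 at 14 d. The 5 genes of the F1 head had a median change of -0.13 at 3 d and -0.17 at 14 d, and the 7 of the membrane part and stalk -0.13 and -0.34. Atp5if1, which blocks the enzyme when it would hydrolyse ATP, differed by -0.05 and -0.15.

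The c-ring, the proton-driven rotor, is encoded by Atp5mc1, Atp5mc2 and Atp5mc3, whose mature proteins are identical in mammals, and the 3 genes did not run together. Atp5mc1 measured 10.75, 10.33 and 10.41 in aged rats and 10.75, 10.78 and 10.64 in young rats. Atp5mc2 measured 10.93, 11.48 and 11.45 in aged rats and 10.86, 11.25 and 10.86 in young rats. It was higher than naive at 3 d in both ages and at 14 d in aged rats alone, and the fitted 0.47 ± 0.15 at 3 d did not pass (adjusted p = 0.064). Its second probe set read 0.62 higher at both times in aged rats, and 0.38 and 0.09 higher at 3 d and 14 d in young rats. Atp5mc3 measured 11.47, 11.54 and 11.26 in aged rats and 11.39, 11.27 and 11.22 in young rats. Its 2 probe sets disagreed: in aged rats at 3 d the second one was 0.83 lower than naive, where the one used was 0.07 higher.

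All 12 members that passed at 14 d also had a fitted change below 0 at 3 d. Of 77 members 0 passed between 14 d and 3 d with limma, against 3.16% of all genes (1.34% higher and 1.82% lower), and 3 (3.9%) had an unadjusted p under 0.05, against 11.7% of all genes. The median difference between 14 d and 3 d was -0.11 in the fit. In aged rats 64 of 77 members were lower at 14 d than at 3 d, with a median of -0.09, against 50.6% of all genes. In young rats 66 were lower, with a median of -0.12, against 64.1% of all genes. Both times were set against the same naive arrays, so their changes from naive are not independent of each other.

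The study also asked how age bears on the tissue after stroke. In the fit, which takes one age difference for all 3 conditions, 0 of 77 members differed between aged and young rats, against 0.0% of all genes, and 6 members (7.79%) had an unadjusted limma p under 0.05, against 7.78% of all genes. The median difference between aged and young was -0.06. Within conditions, with 1 array against 1 and no test, the direction was not the same. In naive tissue the members' median difference between aged and young was 0.04, and 24 of 77 (31.2%) were lower in aged rats, against 51.1% of all genes. At 3 d the median was -0.13 and 60 members (77.9%) were lower in aged rats, against 62.4% of genes. At 14 d it was -0.12 and 55 (71.4%) were lower in aged rats, against 47.9%.

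The change from naive tissue was lower in aged than in young rats for most members. At 3 d the median change was -0.25 in aged rats and -0.09 in young rats, against -0.04 and -0.01 over all genes. At 14 d it was -0.34 in aged rats and -0.17 in young rats, against -0.05 over all genes in each age. The aged change was lower than the young change for 58 of 77 members (75.3%) at 3 d, against 58.9% of all genes, and for 59 (76.6%) at 14 d, against 48.1%. Both of these comparisons use the aged naive array and the young naive array, and a low or high value on either array would enter both. The medians by complex at 14 d were -0.36 in aged and -0.20 in young rats for complex I, -0.25 and -0.10 for complex II, -0.51 and -0.24 for complex III, -0.27 and -0.14 for complex IV, and -0.24 and -0.15 for complex V. At 3 d complex I stood at -0.34 in aged and -0.14 in young rats, and complex III at -0.30 and -0.05. Over the members, the changes in aged and young rats correlated at a Pearson r of 0.577 at 3 d and 0.549 at 14 d, against 0.883 and 0.836 over all genes, which span a wider range of changes. The points share their arrays, and none of these differences between ages was tested.

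**Figure D3:**
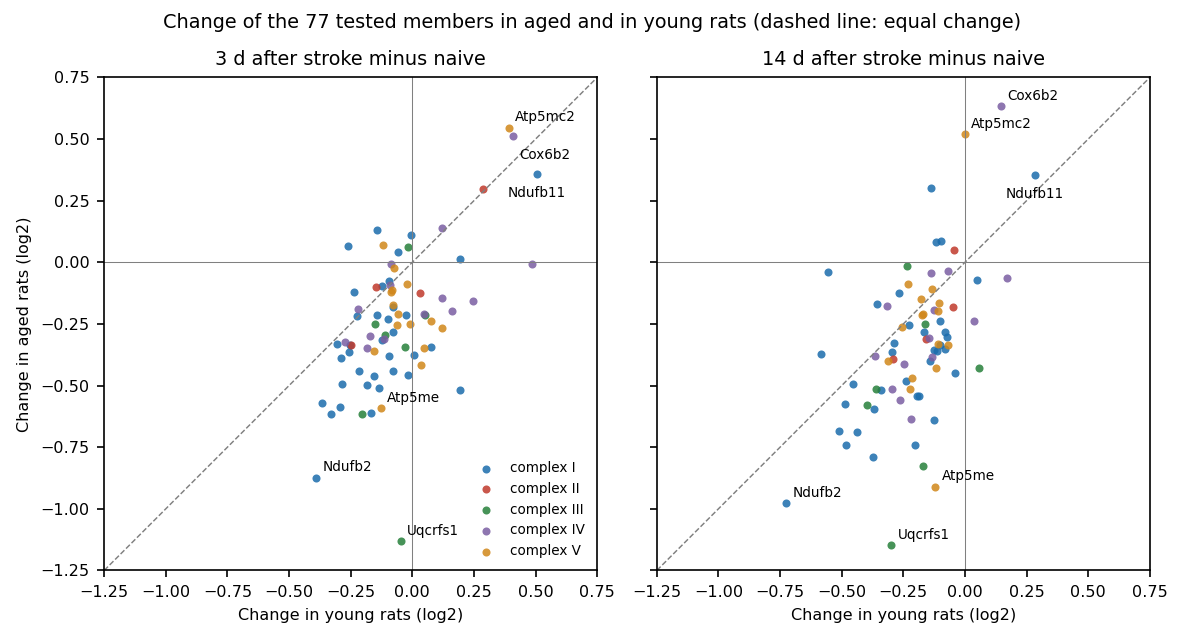
Change in log2 value of each of the 77 tested members in aged rats (vertical axis) against young rats (horizontal axis), at 3 d (left) and 14 d (right) after stroke minus naive, coloured by complex. Points below the dashed line have the lower change in aged rats. At 3 d 58 points lie below it and at 14 d 59.

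The members with the widest gap between ages were in complexes III, V and I. Uqcrfs1, the Rieske iron-sulfur protein that passes electrons from ubiquinol to cytochrome c1, measured 9.69, 8.56 and 8.54 in aged rats and 9.40, 9.36 and 9.11 in young rats. The aged array was 1.13 lower than naive at 3 d, against 0.05 lower in young rats, and the common effect had an SE of 0.24 and did not pass (adjusted p = 0.117 at 3 d and 0.0614 at 14 d). Uqcrb, a subunit near the ubiquinone site, measured 11.40, 10.78 and 10.57 in aged rats and 11.44, 11.23 and 11.26 in young rats. The second Uqcrb probe set was 1.15 lower at 14 d in aged rats and 0.17 lower in young rats, while at 3 d its falls were closer, 0.64 and 0.51.

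Atp5me, the e subunit where ATP synthase dimers meet, measured 8.59, 8.00 and 7.68 in aged rats and 8.34, 8.21 and 8.22 in young rats. Ndufa2, a complex I subunit of the peripheral arm, measured 8.52, 8.00 and 7.88 in aged rats and 8.34, 8.53 and 8.21 in young rats. In both genes the aged naive array was the highest of the aged arrays and the aged 14 d array the lowest of all 6. Ndufb8, a membrane arm subunit, was 0.74 lower at 14 d in aged rats and 0.20 lower in young rats, and Cox7b was 0.63 and 0.22 lower. Ndufa3, of the membrane arm, ran the other way, with 10.11, 10.18 and 10.08 in aged rats and 10.26, 10.00 and 9.70 in young rats. No member that differed this way between ages can be tested here, since each value is 1 array.

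**Figure D4:**
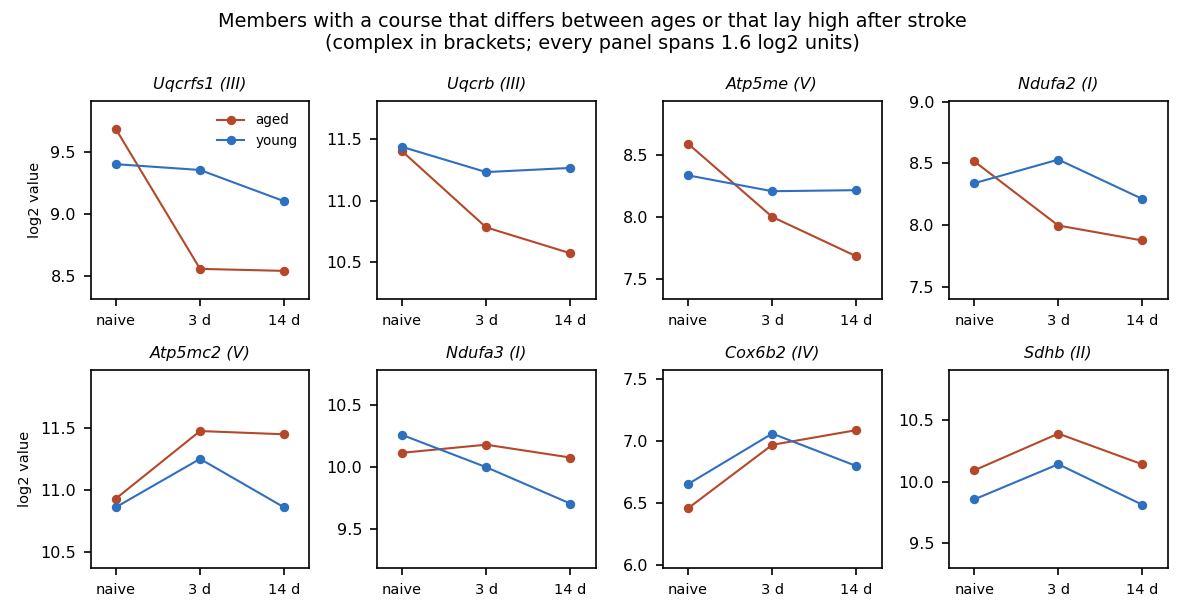
Log2 value on each of the 6 arrays for members whose course differs between aged and young rats, and for Atp5mc2, Cox6b2 and Sdhb, which lay above naive tissue at 3 d. Each point is 1 array and lines join different pools. Uqcrfs1 in aged rats stands at 9.69 in naive tissue and 8.56 at 3 d, while in young rats it stands at 9.40 and 9.36.

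Genes that serve the same pathway were read from lists that do not overlap the subunits, apart from the 3 Nduf assembly factors. Of the assembly factors, 1 of 8 for complex I (Ndufaf1), 0 of 3 for complex II, 3 of 5 for complex III, 1 of 13 for complex IV and 2 of 3 for complex V were lower at 14 d, and 1 for complex IV was higher, against 11.4% of all genes lower and 13.6% higher. Ttc19, which acts in the maturation of Uqcrfs1 within complex III, fell by 0.60 ± 0.13 at 14 d, with 9.07, 8.42 and 8.34 in aged rats and 9.19, 8.79 and 8.72 in young rats. Lyrm7, the chaperone of Uqcrfs1, fell by 0.64 ± 0.17 at 14 d and Uqcc2, an early complex III assembly factor, by 0.54 ± 0.16. Atpaf1, which helps build the F1 head, fell by 0.59 ± 0.13 and Tmem70, which helps build the ATP synthase, by 0.43 ± 0.13. Cmc1, a factor for complex IV, was the one called higher, with 5.41, 6.77 and 6.97 in aged rats and 5.65, 6.96 and 6.14 in young rats. Both naive arrays and the young 14 d array lay below their 40th percentile for Cmc1, so it entered the test only through stroke arrays where it is high, and no size is given. Cox11, which brings copper to complex IV, fell by 0.40 ± 0.12 at 3 d and by 0.43 ± 0.12 at 14 d.

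Of 14 genes for electron carriers and entry points, 4 were lower at 14 d and 0 higher, with a median of -0.07, against 11.4% and 13.6% of all genes. Cycs, cytochrome c, which carries electrons from complex III to complex IV, measured 11.24, 10.87 and 10.68 in aged rats and 11.22, 11.04 and 10.87 in young rats and fell by 0.45 ± 0.12 at 14 d. Coq3, Coq7 and Coq9, which make ubiquinone, fell by 0.62, 0.41 and 0.43. Of 16 genes of pyruvate dehydrogenase and the citric acid cycle, 7 were lower and 1 higher at 14 d, with a median of -0.28. Dld, the E3 subunit shared by the 2-oxoacid dehydrogenases, fell by 0.59 ± 0.12, Sucla2 by 0.53 ± 0.14, Idh3a by 0.49 ± 0.13 and Pdha1 by 0.48 ± 0.14. Idh2, the mitochondrial enzyme that makes NADPH, rose by 0.49 ± 0.13 at 14 d, with 9.54, 9.93 and 10.05 in aged rats and 9.44, 10.09 and 9.90 in young rats.

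Of 20 glycolysis genes, 1 was higher and 2 were lower at 14 d (against 13.6% of all genes higher and 11.4% lower), with a median of -0.16. At 3 d 2 were higher (against 14.4% of all genes), with a median of -0.07. Hk2, a hexokinase that binds mitochondria, measured 6.90, 8.40 and 8.86 in aged rats and 6.72, 8.56 and 8.49 in young rats and rose by 1.67 ± 0.15 at 3 d and by 1.86 ± 0.15 at 14 d. Slc2a1, the glucose transporter of the blood-brain barrier, rose by 0.63 ± 0.14 at 3 d. Pgk1, which makes ATP within glycolysis, fell by 0.64 ± 0.14 at 14 d and Tpi1, which interconverts the triose phosphates, by 0.44 ± 0.12. Of 16 regulators of mitochondrial biogenesis, 3 were lower and 0 higher at 14 d, against the same shares of all genes. Ppargc1a, the coactivator PGC-1alpha, measured 9.54, 9.17 and 9.02 in aged rats and 9.67, 9.03 and 8.99 in young rats and fell by 0.51 ± 0.13 at 3 d and by 0.60 ± 0.13 at 14 d. Esrrg, a nuclear receptor that works with it, fell by 0.59 ± 0.13 at 14 d, and Twnk, the helicase of mitochondrial DNA, by 0.53 ± 0.12.

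Of 14 import genes 4 were lower at 14 d and 0 higher, against 11.4% of all genes lower and 13.6% higher. Tomm70, a receptor on the outer membrane, fell by 0.85 ± 0.13 at 3 d and by 0.93 ± 0.13 at 14 d, with 9.93, 8.93 and 8.88 in aged rats and 10.04, 9.34 and 9.22 in young rats. Of 12 carriers and porins 1 was higher and 2 were lower at 14 d. Ucp2, an uncoupling protein strongly expressed in immune cells, rose by 2.34 ± 0.16 at 3 d and by 1.97 ± 0.16 at 14 d, with 8.91, 11.22 and 11.13 in aged rats and 8.70, 11.08 and 10.42 in young rats. Ckmt1, the mitochondrial creatine kinase, fell by 0.71 ± 0.16 at 3 d and by 0.80 ± 0.16 at 14 d, and Mpc1, a subunit of the pyruvate carrier, by 0.43 ± 0.12 at 14 d.

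Markers of brain cell types also differed from naive tissue, in both directions. Of all genes, 14.4% were called higher and 7.87% lower at 3 d, and 13.6% higher and 11.4% lower at 14 d. Of 12 neuronal markers, 5 were lower at 3 d and 8 at 14 d and 0 higher, with medians of -0.44 and -0.56. Their mean level was 11.45, 11.08 and 10.85 in aged rats and 11.51, 11.07 and 10.94 in young rats. Nefm, a neurofilament subunit, fell by 0.94 ± 0.15 at 3 d and by 1.53 ± 0.15 at 14 d. Rbfox3, the neuronal nuclear protein, fell by 0.71 ± 0.13 at 14 d, Gad1, which makes GABA, by 0.78 ± 0.12, and Syn1, a synaptic vesicle protein, by 0.61 ± 0.12. The neuronal medians were -0.35 in aged and -0.50 in young rats at 3 d, and -0.60 and -0.56 at 14 d. The members' medians were -0.25 in aged and -0.09 in young rats at 3 d, and -0.34 and -0.17 at 14 d. Each median compares 1 array with 1, and a link between neuronal markers and members was not tested.

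All 9 microglia and macrophage markers were higher at both times, with medians of 1.51 and 1.64. Their mean level was 8.20, 10.07 and 10.34 in aged rats and 7.83, 10.05 and 9.80 in young rats. Of 7 astrocyte markers 2 were higher at 3 d and 4 at 14 d, and the mean level was 10.88, 11.11 and 11.19 in aged rats and 10.64, 11.02 and 11.21 in young rats. Of 6 oligodendrocyte markers 1 was lower at each time, and of 5 endothelial markers 3 were higher at each time. The 6 proliferation markers had a mean naive level of 6.32 in aged and 6.34 in young rats. Both means lay below the 40th percentile of their arrays (6.56 and 6.55). At 3 d the means were 8.67 and 9.06. Genes of this list may thus have entered the test only through stroke arrays where they are high, and no count of calls is given. The shares of all genes were 14.4% higher and 7.87% lower at 3 d, and 13.6% and 11.4% at 14 d. The part of these shifts in the levels of the respiratory chain genes was not tested.

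**Figure D5:**
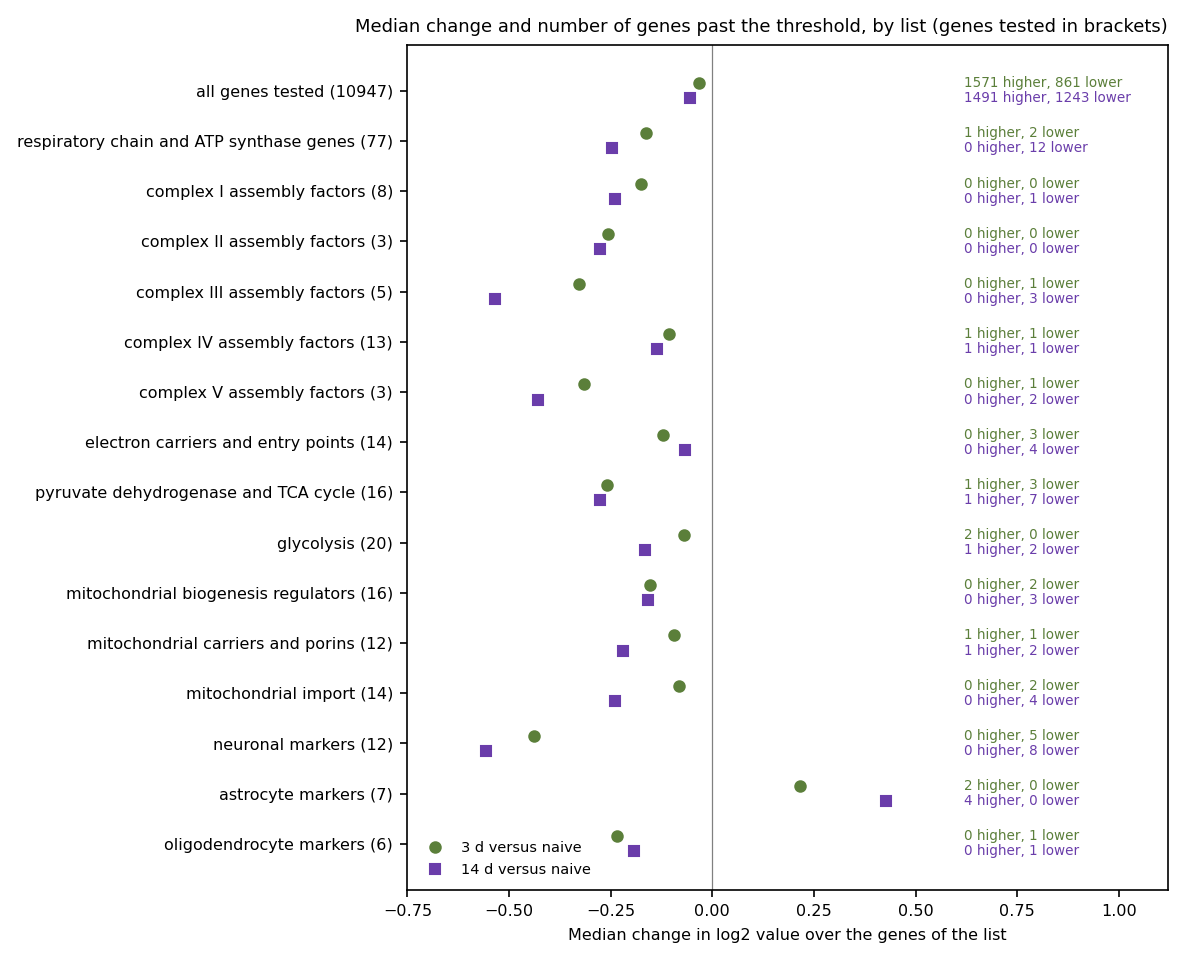
Median fitted change in log2 value at 3 d (circles) and 14 d (squares) after stroke against naive tissue for the members, their assembly factors, related gene lists and 3 of the cell type lists, with the number of genes past the threshold at the right. The microglia and macrophage, endothelial and proliferation lists are not drawn. The members at -0.16 and -0.25 lie between all genes and the neuronal markers.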

How the data were processed

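RNA of 6 pools, 1 for each group, was measured on single-channel Affymetrix whole-transcript arrays. The values deposited by the authors, 1 for each array and probe set, were used as log2 values. Their range is the only basis for that base, on which each change and fold depends. R 2.14.0 with the affy package made them, per the submitters' processing notes. How background and normalization were handled, and the build, were not given in the sources used here. The array medians are nearly equal, and such scaling hides an overall change in RNA content, while array values compress large folds.

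The platform annotation gave 1 symbol for 15209 of 28826 probe sets and several for 306, and 13311 stayed without a name here. The RefSeq gene table of GRCr8 held 15178 of the 15209, and 0 symbols changed. Genes that reached the 40th percentile of at least 1 array were kept (10947 genes), each by its probe set of highest mean. Age and condition were additive terms of a limma 3.58.1 fit in R 4.3.3 to the 6 arrays (2 residual degrees of freedom, prior degrees of freedom 5.56), with Benjamini-Hochberg adjustment over all 10947 genes at 0.05. The p-values rest on the spread between these pools, drawn toward a variance estimated over all genes, and do not measure the spread between animals. An age difference in the response enters the error. The labels name neither batch nor scan date, and batch and group cannot be told apart. The functions were tested on simulated arrays.

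The members and lists were chosen with earlier results of these data known. Named were, per complex and comparison, up to 4 called members with the largest change, fixed isoform pairs, c-ring, complex II and core genes, and per complex the 2 members with the widest age gap at each time, plus up to 4 called genes per list. Other members, named to give ranges and exceptions, were added after their values were seen. The alternatives tried were median centring, quantile normalization, a 60th percentile filter or none, variances with a trend and robust estimates, age left out of the model, the mean of a gene's probe sets, structural subunits alone, and leaving out each array.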

Additional observations from a re-analysis of the deposited data

Results flagged for a closer look

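Some of the 77 tested members moved one way in aged rats and the opposite way in young rats, with 1 array against 1 in each age, and the difference was not tested. There were 20 at 3 d and 9 at 14 d. In each pair of changes below the aged value stands first, and the aged minus young difference follows in brackets.

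In complex I at 3 d, Ndufa2 had the widest gap, with changes of -0.52 and 0.19 (-0.711). Ndufa3 stood at 0.07 and -0.26 (0.327), Ndufs7 at 0.13 and -0.14 (0.274), Ndufb10 at 0.11 and -0.005 (0.114) and Ndufb6 at 0.04 and -0.06 (0.099). The assembly factor Ndufaf3 stood at -0.34 and 0.08 (-0.42) and Ndufs6-ps1 at -0.38 and 0.01 (-0.384). Sdhc of complex II stood at -0.13 and 0.03 (-0.157). In complex III, Uqcr11 stood at -0.22 and 0.05 (-0.265) and Uqcrh at 0.06 and -0.02 (0.08).

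In complex IV at 3 d, Cox4i2 stood at -0.01 and 0.48 (-0.492), Cox6a2 at -0.16 and 0.25 (-0.404), Cox5b at -0.20 and 0.16 (-0.356) and Cox7a2l at -0.14 and 0.12 (-0.263). Cox4i2 reached the 40th percentile on the young 3 d array alone. Cox5a stood at -0.21 and 0.05 (-0.257), and its second probe set ran the reverse way, at 0.05 and -0.19. In complex V, the c-ring genes Atp5mc1 and Atp5mc3 stood at -0.42 and 0.04 (-0.453) and at 0.07 and -0.12 (0.187). Atp5mg stood at -0.35 and 0.05 (-0.394), Atp5po at -0.27 and 0.12 (-0.388) and Atp5pb at -0.24 and 0.08 (-0.315). The second Atp5mc3 probe set was lower in both ages, at -0.83 and -0.16.

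At 14 d Atp5mc2 stood at 0.52 and -0.002 (0.522), Uqcr11 at -0.43 and 0.06 (-0.488) and Ndufs7 at 0.30 and -0.14 (0.442). Cox7a2l stood at -0.24 and 0.04 (-0.275), Cox4i2 at -0.06 and 0.17 (-0.232), Ndufb10 at 0.08 and -0.12 (0.199) and Ndufb6 at 0.09 and -0.10 (0.184). Ndufa11 stood at -0.07 and 0.05 (-0.12) and Sdhb at 0.05 and -0.04 (0.092).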

How the results depend on the processing

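The median change of the members stayed below 0 at both times under all the alternatives tried. No call turned direction among the members named by the rule, and calls of the other members were not followed one by one. Counts of calls depended on the settings. With quantile normalization 1 member was higher at 14 d. With medians centred 0 were higher and 4 lower at 3 d, and 22 were lower at 14 d. Without a filter 1 member passed at 3 d, 0 higher and 1 lower. With the 60th percentile filter 6 passed at 3 d (2 higher, 4 lower) and 19 at 14 d, all of them lower. With trended and robust variances 16 passed at 3 d (3 higher, 13 lower) and 30 at 14 d (1 higher, 29 lower). With age left out of the model 1 passed at 3 d, 0 higher and 1 lower. For quantile normalization, the filter settings and the model without age, the shares of all genes called are not given here. Whether their counts differ from those shares was thus not tested. Leaving out 1 array at a time, the members called ranged from 0 to 12 at 3 d (0 to 3 higher, 0 to 9 lower) and from 0 to 20 at 14 d (0 to 2 higher, 0 to 18 lower), and none passed between 14 d and 3 d or between ages. The members' median then ranged from -0.267 to -0.085 at 3 d, from -0.344 to -0.181 at 14 d, from -0.154 to -0.056 between 14 d and 3 d, and from -0.121 to -0.036 between ages. A lone array is then assumed to vary like the others, and these counts are not set against the share of all genes called. The cause of these shifts was not tested. At 14 d the calls of Ndufb2 and Ndufb3 were lost under 1 of 13 alternatives, the one without the aged naive array, and those of Cox7a2 and Uqcrq under 7. The median of complex III between 14 d and 3 d was 0.015 without the aged 14 d array. No paired analysis was possible because each group has 1 array and age already enters the fit. With 1 pool per group, changes near 0.4 on the log2 scale lie at the edge of what the arrays can show.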
